A study of Mus musculus with 89 samples.

Results

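The trophectoderm markers described here are 10 genes, Cdx2, Elf5, Gata2, Gata3, Tfap2a, Tfap2c, Krt8, Krt18, Hand1 and Tead4, chosen by symbol from the 54146 genes of the deposited RNA-seq tables, and each symbol matched 1 gene. They were measured in 20 libraries of mouse embryonic stem cells (ESCs), the self-renewing cells of the early embryo grown in culture. All libraries lack functional endogenous Esrrb. In the EKOiE line an Esrrb transgene under doxycycline (Dox) control replaces it, and in EKOiE NrKO cells both alleles of Nr5a2 are disrupted at an exon as well. Esrrb and Nr5a2 are orphan nuclear receptors that bind DNA and sustain the pluripotency network. EKOiE cells given Dox are named +E+N and those deprived of it −E, and the corresponding EKOiE NrKO states are −N and −E−N. Dox was present or absent for 2 days at 1 µg/ml. Each state was grown in serum with LIF (FCS/LIF, n = 2 libraries per state) and in serum-free medium with the Mek inhibitor PD0325901, the Gsk3 inhibitor CHIR99021 and LIF (2i/LIF, n = 3 per state). The +E+N cells are therefore a transgenic rescue rather than a wild-type line. Other differences of the NrKO line cannot be told apart from the absence of Nr5a2, nor the medium from the culture series.

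The trophectoderm is the first epithelium of the mouse embryo. It surrounds the blastocyst cavity and gives rise to the placental trophoblast, a lineage that ESCs rarely form. Tead4, a partner of the Hippo pathway coactivator Yap, acts high in the programme in outer cells of the morula. The homeobox factor Cdx2, the zinc finger factors Gata2 and Gata3, the AP-2 factors Tfap2a and Tfap2c and the ETS factor Elf5 act in the trophoblast network downstream of it or beside it. Hand1 is a basic helix-loop-helix factor of trophoblast giant cells. Krt8 and Krt18 are the type II and type I keratins that pair into the intermediate filaments of simple epithelia, including the trophectoderm.

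In the mm10 annotation Krt8 (chr15:101996698-102004482, minus strand) and Krt18 (chr15:102028180-102032027, plus strand) are neighbours with 23697 bases between their ends. Gata2 lies at chr6:88193891-88207032 on the plus strand and Cdx2 at chr5:147300805-147307270 on the minus strand. These 4 genes had the largest increases among the markers tested in 2i/LIF after loss of both factors. For this reason the exon-free stretches that end next to their first exons are shown here 5′ to 3′ on the strand of the gene, from RefSeq on GRCm38.p6, the assembly also called mm10. Capitals mark a match to GATAA, the core bound by Gata factors, on either strand.
Krt8: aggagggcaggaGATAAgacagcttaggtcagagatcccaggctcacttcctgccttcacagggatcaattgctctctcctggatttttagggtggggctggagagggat
Krt18: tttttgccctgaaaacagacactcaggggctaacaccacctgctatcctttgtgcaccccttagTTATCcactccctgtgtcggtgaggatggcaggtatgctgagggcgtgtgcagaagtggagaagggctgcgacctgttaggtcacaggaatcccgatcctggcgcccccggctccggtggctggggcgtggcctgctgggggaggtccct
Gata2: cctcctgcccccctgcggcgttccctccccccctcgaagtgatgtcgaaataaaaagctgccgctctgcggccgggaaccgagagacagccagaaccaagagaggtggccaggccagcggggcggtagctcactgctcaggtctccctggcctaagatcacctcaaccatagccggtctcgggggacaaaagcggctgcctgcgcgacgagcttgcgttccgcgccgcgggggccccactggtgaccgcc
Cdx2: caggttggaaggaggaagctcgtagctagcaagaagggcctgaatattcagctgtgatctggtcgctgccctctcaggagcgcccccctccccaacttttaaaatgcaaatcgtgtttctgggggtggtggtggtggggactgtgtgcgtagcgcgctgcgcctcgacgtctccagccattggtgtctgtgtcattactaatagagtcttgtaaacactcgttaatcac
The stretches are chr15:102004483-102004592 on the minus strand for Krt8, chr15:102027966-102028179 on the plus strand for Krt18, chr6:88193641-88193890 on the plus strand for Gata2 and chr5:147307271-147307499 on the minus strand for Cdx2. The match in Krt8 occupied bases 13 to 17 of its stretch, and that in Krt18, written TTATC because the motif is on the other strand, occupied bases 65 to 69.

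The wider RefSeq windows, 250 bases before to 50 bases after each start site, matched 7 of the 10 markers (without Hand1, Tead4 and Tfap2c). On either strand, the element of Esrrb and Nr5a2, TCAAGGTCA, and the close form TCAAGGCCA were found in 0 of these 7 genes, against 0.423% and 0.591% of all 32851 windows. GGAATG, the core bound by Tead factors, was found in Elf5 and Gata2, against 14.7% of all windows. GATAA was found in Elf5, Krt8 and Krt18, against 25.4% of all windows, and TATAAA in Krt8, against 13.6%. Motifs this short match often, and a match is a description of letters only.

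The libraries held 36514172 to 45443379 counts in FCS/LIF and 26653035 to 32526534 in 2i/LIF, and libraries of the same state differed by more than sampling noise. A gene is called changed here at an adjusted p below 0.01 and a fold above 1.5. Esrrb fell from 279 and 362 CPM, counts normalised to library size, in +E+N to 75.4 and 66.1 in −E in FCS/LIF, but only from 506, 601 and 599 to 440, 426 and 375 in −E in 2i/LIF, where the difference was not called (log2 fold change -0.46, SE 0.158, adjusted p = 0.116 with edgeR's quasi-likelihood test). Transgene and disrupted gene both add to the Esrrb counts and cannot be told apart there. In −E−N in 2i/LIF Esrrb was at 170, 160 and 104 CPM, a called decrease. Nr5a2 transcript in −N was at 27.5 and 26.0 CPM in FCS/LIF, against 41.0 and 37.1 in +E+N, and in 2i/LIF at 76.8, 63.2 and 63.0, against 78.7, 69.7 and 61.3. Disruption of an exon leaves transcript to be counted, so this level is no measure of the protein. The ESC label was met: Pou5f1, Sox2, Nanog and Zfp42 summed to 2357 to 2633 CPM in +E+N in FCS/LIF and 2825 to 3043 CPM in 2i/LIF.

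These are bulk libraries, in which fewer cells of a type and less RNA per cell cannot be told apart. Before any loss, the keratins were the most abundant markers in FCS/LIF and Tfap2c was the most abundant in 2i/LIF. In TPM, a transcript level that is corrected for length and lets genes be compared, Krt8 was at 128 ± 17.1 and Krt18 at 116 ± 15.6 (mean ± SD, n = 2) in +E+N cells in FCS/LIF. Tfap2c followed at 30.5 TPM, Hand1 at 12.7, Gata2 at 7.67, Tead4 at 4.74, Tfap2a at 4.39, Gata3 at 1.57, Cdx2 at 1.04 and Elf5 at 0.155. Libraries of neighbours in this order overlapped for Krt8 and Krt18 and for Tead4 and Tfap2a, and were apart for the others. In 2i/LIF the order was Tfap2c at 33.8 ± 4.50 TPM (n = 3), Tead4 at 14.1, Krt8 at 5.53, Tfap2a at 4.50, Krt18 at 4.35, Gata2 at 1.30, Cdx2 at 0.797, Gata3 at 0.327, Elf5 at 0.127 and Hand1 at 0.0167. Here the libraries of Krt8 overlapped with those of Tfap2a, those of Tfap2a with Krt18, those of Gata2 with Cdx2 and those of Elf5 with Hand1.

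**Figure D1:**
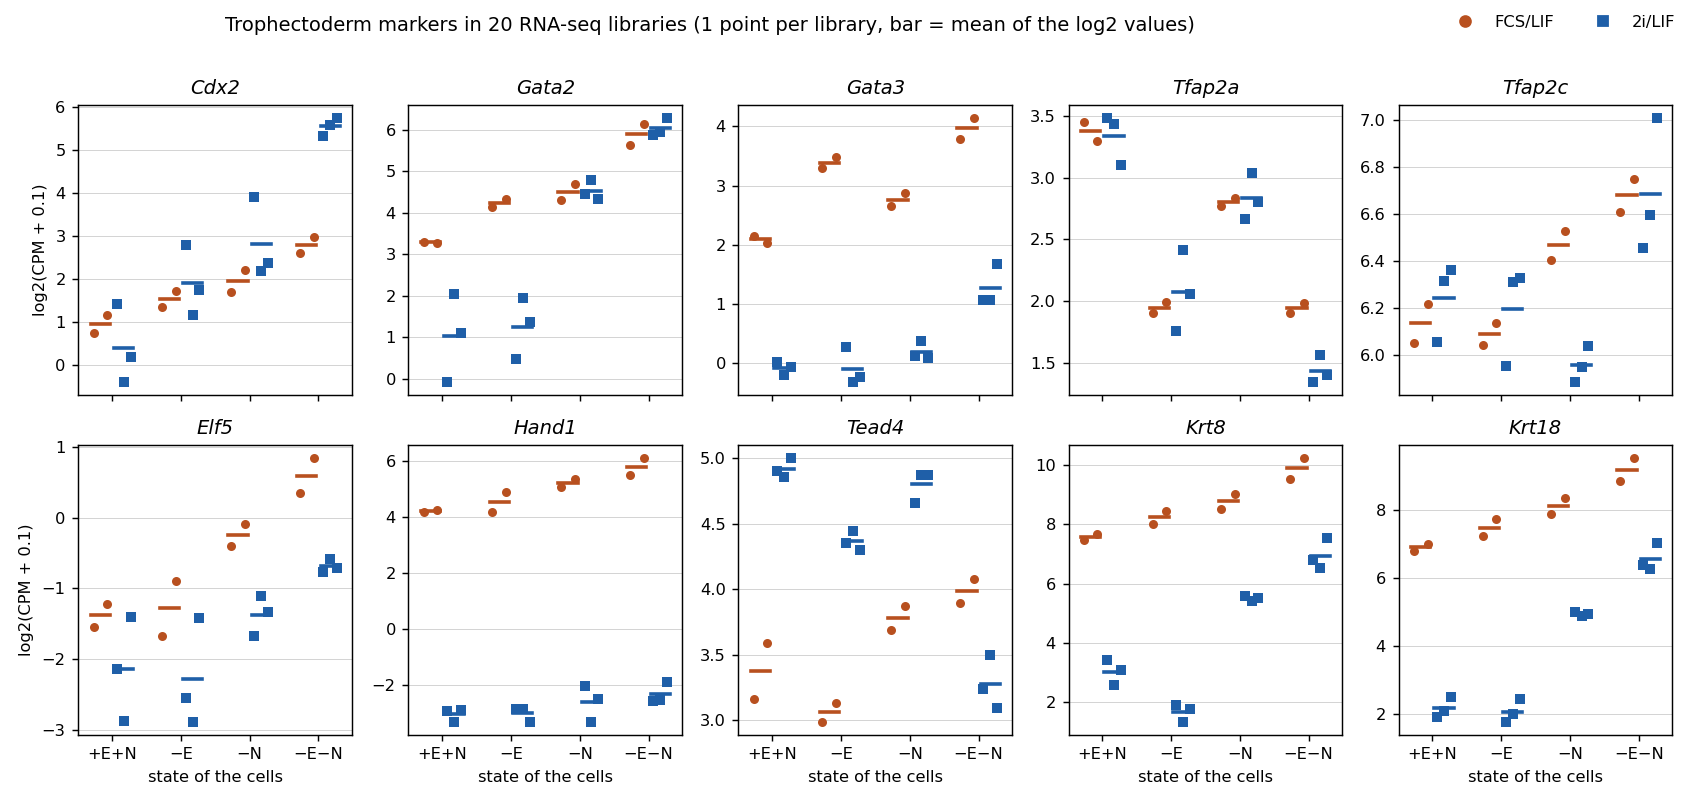
Level of each marker in the 20 libraries as log2(CPM + 0.1), 1 point per library, with a bar at the mean of the log2 values of each state; every panel has its own vertical scale. CPM were scaled within each medium. FCS/LIF circles lie above 2i/LIF squares for both keratins, Gata3 and Hand1 in every state, and Tfap2a is lower in −E and −E−N. Tead4 is higher in 2i/LIF in +E+N but higher in FCS/LIF in −E−N.

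The +E+N states of the media were compared in a joint fit of all libraries. 6 of the 10 markers were called, against 34.7% of 16147 genes. Krt18 and Krt8 were lower in 2i/LIF, with log2 fold changes of -4.69 (SE 0.273, adjusted p = 4.12e-10) and -4.48 (SE 0.293, adjusted p = 1.48e-09). Gata3 and Gata2 were lower too, with log2 fold changes of -2.23 and -2.04. Tead4 was the 1 marker that was higher in 2i/LIF, by 1.60 (SE 0.139). Hand1 had 1477 counts over both FCS/LIF libraries and 2 counts over the 3 libraries in 2i/LIF, a ratio of 816 with a 95% interval from 225 to 6743 that covers counting error only. It passed the filter through FCS/LIF alone, so a lower level in 2i/LIF was the call open to it. Hand1 therefore adds little to the count of 6. Cdx2, Elf5, Tfap2a and Tfap2c did not pass, with log2 fold changes of -0.30, -0.89, 0.03 and 0.17.

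Withdrawal of Esrrb in FCS/LIF raised Gata3 and Gata2 and lowered Tfap2a, and 7 of the 10 markers were not called. All 10 passed the filter on low counts in this medium, and 5.76% of 15636 genes were called in the same comparison. Gata3 was at 4.36 and 3.98 CPM in +E+N and at 9.77 and 11.0 in −E, a log2 fold change of 1.32 (SE 0.158, adjusted p = 0.000754). Gata2 was at 9.66 and 9.62 CPM in +E+N and at 17.5 and 19.9 in −E, a log2 fold change of 0.96 (SE 0.188, adjusted p = 0.00857). Tfap2a went the other way, from 10.8 and 9.73 CPM to 3.65 and 3.87, a log2 fold change of -1.45 (SE 0.130, adjusted p = 0.00016). None of these 3 genes had overlapping libraries between the states.

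Krt8 was at 258 and 349 CPM in −E against 179 and 206 in +E+N, without overlap but not called (log2 fold change 0.66, SE 0.239, adjusted p = 0.0870). Its partner Krt18 (log2 fold change 0.59) and Cdx2 (0.60) were alike in size and also not called. Hand1, Elf5, Tfap2c and Tead4 had log2 fold changes of 0.35, 0.17, -0.05 and -0.33. The median over the 10 markers was 0.47, while the median over all genes tested was -0.00251. The call of Gata2 was lost when any 1 of the 4 libraries compared was left out, with log2 fold changes between 0.86 and 1.06 over all 8 fits with a library left out.

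Loss of Nr5a2 alone in FCS/LIF gave no marker that passed the test, although 9 of the 10 estimates were above 0. 0.173% of 15636 genes were called in this comparison, so few genes of any kind passed. Krt8 was at 366 and 522 CPM in −N against 179 and 206 in +E+N (log2 fold change 1.21, SE 0.241, adjusted p = 0.0445), and Krt18 was at 235 and 326 against 112 and 129 (1.22, SE 0.243, adjusted p = 0.0445). Gata2, at 19.5 and 25.9 CPM, had the lowest adjusted p of the markers (log2 fold change 1.24, SE 0.187, adjusted p = 0.0204). The libraries of −N and +E+N did not overlap for any of these 3 genes.

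Elf5, Cdx2 and Hand1 had log2 fold changes of 1.37, 1.05 and 1.02 without Nr5a2, and Gata3, Tead4 and Tfap2c of 0.69, 0.39 and 0.33. Tfap2a was the 1 marker below its +E+N level, at 6.72 and 7.04 CPM (log2 fold change -0.58, SE 0.125, adjusted p = 0.0564). At an unadjusted p under 0.05, edgeR's quasi-likelihood test counted 10 of the 10 markers, against 16.3% of all genes at that threshold, while DESeq2 called 1 and limma on log2(TPM + 1) called 0. Elf5 had 9 counts in 1 +E+N library and passed the filter through −N and −E−N. It therefore adds little to this count or to the count of estimates above 0. The median of the markers was 1.03, against -0.0117 over all genes.

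With both factors lost in FCS/LIF, 7 markers rose and Tfap2a fell. 8 of 10 markers were called, against 18.8% of all genes tested. Gata2 rose to 49.7 and 70.3 CPM from 9.66 and 9.62, a log2 fold change of 2.64 (SE 0.187, adjusted p = 1.49e-05). Gata3 rose to 13.8 and 17.5 CPM (1.91, SE 0.157, adjusted p = 3.07e-05). Cdx2 stayed at low CPM throughout this medium, at 1.56 and 2.12 in +E+N and 5.96 and 7.78 in −E−N (1.89, SE 0.253, adjusted p = 0.000422).

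Krt8 reached 744 and 1197 CPM and Krt18 458 and 732, with log2 fold changes of 2.33 (SE 0.248, adjusted p = 0.000123) and 2.30 (SE 0.249, adjusted p = 0.000137). Hand1 rose to 45.4 and 68.7 CPM from 17.9 and 19.1 (1.62, adjusted p = 0.000802). Elf5, which marks trophoblast stem cells, rose to 1.17 and 1.69 CPM from 0.242 and 0.330 (2.30, SE 0.386, adjusted p = 0.0014), but it had 9 counts in 1 +E+N library and passed the filter through −N and −E−N, where it was higher, so its call adds little to the count of 8. For every marker that rose, both −E−N libraries were above both +E+N libraries. Tfap2a was at 3.65 and 3.85 CPM, the level it already had in −E (log2 fold change against +E+N -1.45, SE 0.131, adjusted p = 4.85e-05). Tfap2c, at 97.4 and 107 CPM, had a log2 fold change of 0.54 that passed on p (adjusted p = 0.000706) but not on fold, and Tead4 had one of 0.60 (adjusted p = 0.0111).

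The median over the 10 markers was 1.90, against 0 over all genes. In each of the 4 states in FCS/LIF the summed CPM of the markers was higher in replicate 2 than in replicate 1, by the most in −E−N at 1434 and 2223. Krt8 and Krt18 made up 83.8% and 86.8% of these 2 sums, and the other 8 markers summed to 232 and 294 CPM. The differentiated trophoblast markers described further on summed to 38.9 and 66.9 CPM in the same 2 libraries. The part of the difference between replicates in the results was not tested. Elf5 was not called without +E+N replicate 1 or without −E−N replicate 2, each of which left 7 called markers. Tfap2c was called without −E−N replicate 1, and both Tfap2c and Tead4 were called without +E+N replicate 2, which gave 10.

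**Figure D2:**
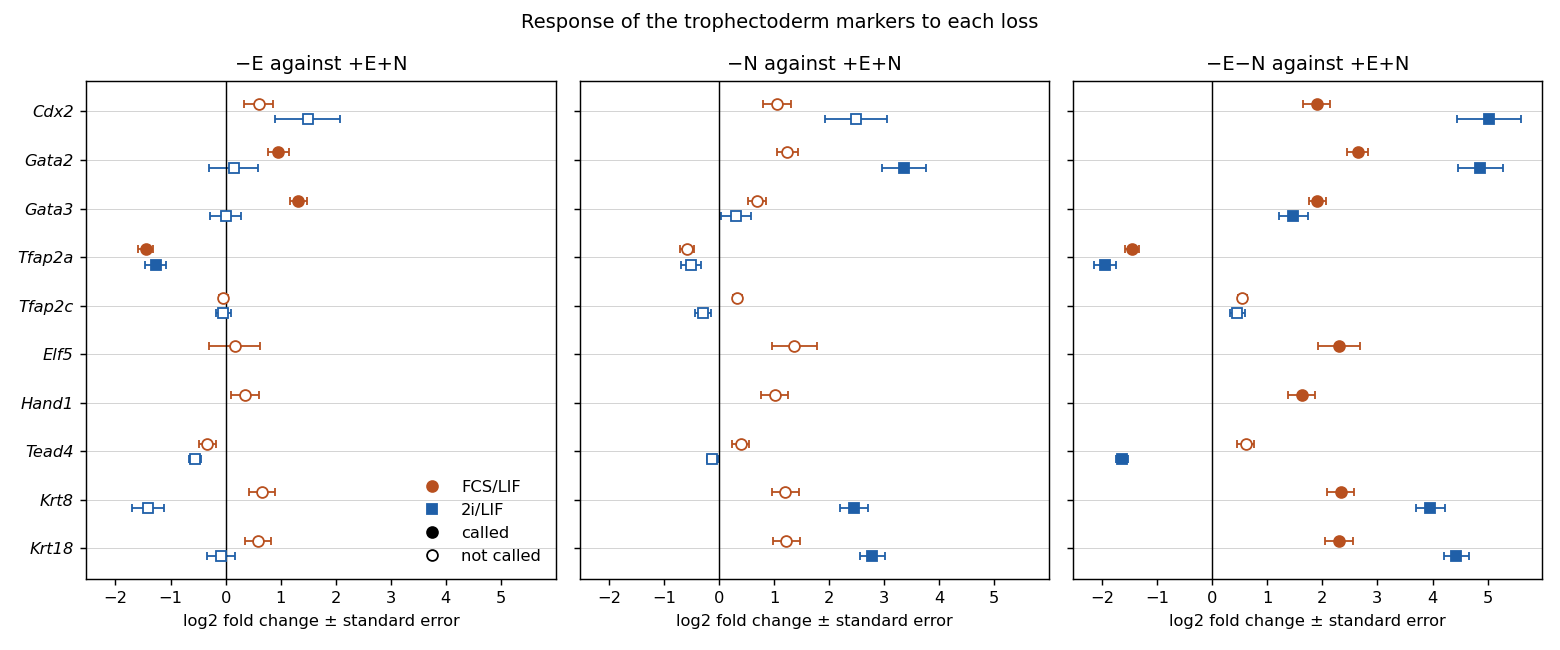
Log2 fold change of each marker against +E+N with its standard error, in FCS/LIF (circles) and 2i/LIF (squares), for −E, −N and −E−N; filled symbols were called, and Elf5 and Hand1 have no 2i/LIF symbol because they did not pass the filter on low counts there. Tfap2a lies left of 0 in all 3 panels, and Tead4 lies on opposite sides of 0 in the −E−N panel.

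The combined loss in FCS/LIF was also compared with each single loss. Against −N, where 10.1% of genes were called, 5 of 10 markers passed: Gata2 (log2 fold change 1.40, SE 0.174), Gata3 (1.22, SE 0.150), Krt8 (1.13, SE 0.239) and Krt18 (1.08, SE 0.239) were higher and Tfap2a (-0.88, SE 0.132) was lower in −E−N. Against −E, where 5.05% of genes were called, 8 of 10 passed, all of them higher in −E−N: Elf5 (2.13), Krt18 (1.72), Krt8 (1.68), Gata2 (1.68), Cdx2 (1.29), Hand1 (1.27), Tead4 (0.94) and Tfap2c (0.59). Gata3 (0.59, SE 0.146, adjusted p = 0.0230) and Tfap2a (-0.00, SE 0.136), which had passed on withdrawal of Esrrb alone, were the 2 exceptions. Elf5 passed the filter through −N and −E−N and had a mean of 0.325 CPM in −E. An increase was therefore the call open to it against −E, and it adds little to the count of 8. Against −E, 0 markers were called without −E replicate 1, 3 without −E replicate 2, 5 without −E−N replicate 1 and 1 without −E−N replicate 2. Against −N, 3 were called without −N replicate 1 or either −E library, and 2 without −E−N replicate 2.

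No marker had a called interaction in FCS/LIF, which is the departure of the combined response from the sum of the single log2 responses. 0.0320% of genes had one at an adjusted p below 0.01. edgeR's quasi-likelihood test gave 3 of the 10 markers an unadjusted p under 0.05, against 8.85% of all genes, and DESeq2 and limma called 0. The interaction was 0.44 for Gata2 (SE 0.255), 0.47 for Krt8 (SE 0.335) and 0.49 for Krt18 (SE 0.338), and 0.58 for Tfap2a (SE 0.185).

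In 2i/LIF, withdrawal of Esrrb raised no marker, and Tfap2a fell as it had in FCS/LIF. Elf5 and Hand1 were below the filter on low counts in 2i/LIF, with at most 16 and 5 counts in a library, so 8 of 10 markers were tested. 1 of these 8 was called, against 1.55% of 14355 genes. Tfap2a was at 11.1, 10.7 and 8.49 CPM in +E+N and at 3.28, 5.23 and 4.06 in −E, without overlap (log2 fold change -1.27, SE 0.188, adjusted p = 0.00241). This call was lost without +E+N replicate 1, +E+N replicate 2 or −E replicate 3, and over all 12 fits with a library left out the log2 fold change lay between -1.46 and -1.12.

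Krt8 was at 3.64, 2.44 and 3.28 CPM in −E, below all of 10.5, 5.87 and 8.36 in +E+N. By edgeR's quasi-likelihood test it was not called (log2 fold change -1.41, SE 0.297, adjusted p = 0.0161) unless −E−N replicate 3 was left out. DESeq2 called Krt8, and so did edgeR with no filter on low counts. Same-numbered libraries of these states deviated together, although no label says that they were paired. With the replicate numbers as a block, edgeR's quasi-likelihood test called Krt8 lower (adjusted p = 0.00127) among 4.15% of all genes. Krt18 was at 3.35, 3.96 and 5.33 CPM, against 3.66, 4.19 and 5.59, a log2 fold change of -0.08. Tead4 was lower in all 3 libraries of −E, at 20.4, 21.7 and 19.6 CPM against 29.9, 29.0 and 31.9, and passed on p but not on fold (-0.56, SE 0.104, adjusted p = 0.00815). Cdx2, with a log2 fold change of 1.49 (SE 0.591, adjusted p = 0.171), varied widely, from 0.661 to 2.55 CPM in +E+N and from 2.12 to 6.85 in −E. Gata2, Gata3 and Tfap2c had log2 fold changes of 0.15, 0.01 and -0.04, and the median over the markers tested was -0.06.

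Loss of Nr5a2 in 2i/LIF raised both keratins and Gata2. 3 of 8 markers were called, against 3.65% of genes. Krt18 rose from 3.66, 4.19 and 5.59 CPM to 31.9, 29.7 and 30.8, a log2 fold change of 2.78 (SE 0.227, adjusted p = 1.7e-05). Krt8 rose to 47.8, 42.0 and 46.0 CPM (2.45, SE 0.257, adjusted p = 0.000104). Gata2 rose from 0.851, 4.00 and 2.04 CPM to 21.9, 27.3 and 20.2 (3.36, SE 0.397, adjusted p = 0.000261). The −N libraries of these 3 genes lay well above all +E+N libraries.

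Cdx2 was at 14.8, 4.43 and 5.10 CPM in −N against 2.55, 0.661 and 1.04, also without overlap, but was not called (log2 fold change 2.49, SE 0.571, adjusted p = 0.0149). In both states replicate 1 was the highest. Same-numbered libraries deviated together here too. With the replicate block, edgeR's quasi-likelihood test called Cdx2 (log2 fold change 2.46, SE 0.414, adjusted p = 0.000941) among 7.77% of all genes. DESeq2 called Cdx2 as well, and so did edgeR with no filter on low counts. Gata3 (0.30), Tfap2a (-0.51), Tfap2c (-0.29) and Tead4 (-0.12) were not called. Elf5 had 24 counts over the 3 −N libraries and 13 over the +E+N libraries, a ratio of 1.96 with a 95% interval of 0.960 to 4.20 for counting error only. The median over the 8 markers tested was 1.38.

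When both factors were lost in 2i/LIF, Cdx2, Gata2, Gata3 and both keratins rose, and Tfap2a and Tead4 fell. 7 of 8 markers were called, against 18.6% of genes. Cdx2 rose to 40.5, 47.8 and 53.5 CPM, a log2 fold change of 5.03 (SE 0.580, adjusted p = 2.79e-05); its lowest +E+N library held 18 counts, so it passed the filter through the other states. Gata2 rose to 59.0, 61.1 and 77.3 CPM (4.86, SE 0.406, adjusted p = 2.3e-06). Gata3 stayed low, at 1.99, 2.01 and 3.09 CPM against 0.914, 0.771 and 0.863 in +E+N (1.47, SE 0.264, adjusted p = 0.000765). All 3 −E−N libraries exceeded all +E+N libraries for these factors.

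Krt18 rose to 82.6, 76.6 and 131 CPM, a log2 fold change of 4.43 (SE 0.235, adjusted p = 8.27e-08). Krt8 rose to 110, 92.0 and 185 CPM (3.96, SE 0.266, adjusted p = 4.09e-07). Replicate 3 was the highest for both. Tead4 fell to 9.35, 11.2 and 8.45 CPM from 29.9, 29.0 and 31.9 (-1.65, SE 0.109, adjusted p = 3.73e-07), so the factor placed at the top of the trophectoderm programme was lower while Cdx2 was higher. Tfap2a fell to 2.44, 2.85 and 2.54 CPM (-1.95, SE 0.195, adjusted p = 9.41e-06). Tfap2c was not called (0.46, SE 0.139, adjusted p = 0.0195).

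Elf5 had 46 counts over the 3 −E−N libraries, a ratio of 3.51 to +E+N with a 95% interval of 1.87 to 7.09, and Hand1 had 9 counts against 2, a ratio of 4.47 with an interval of 0.925 to 42.5; both intervals cover counting error only. The median over the 8 markers tested was 2.71, against 0.0102 over all genes.

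Every marker tested in 2i/LIF differed between −E−N and −N: 8 of 8 were called, against 6.76% of genes. Cdx2 (log2 fold change 2.54, SE 0.490), Krt18 (1.65), Krt8 (1.51), Gata2 (1.51), Gata3 (1.16) and Tfap2c (0.75) were higher in −E−N, and Tead4 (-1.53, SE 0.109) and Tfap2a (-1.44) were lower. The count was 4 without −N replicate 2, −N replicate 3 or −E−N replicate 3, and 5 without −N replicate 1 or −E−N replicate 2; Gata3 and Gata2 were the markers lost most often. Against −E, 6 of 8 were called and 13.1% of genes: Krt8 (5.37, SE 0.295), Gata2 (4.72), Krt18 (4.52), Cdx2 (3.54) and Gata3 (1.46) were higher and Tead4 (-1.09) was lower. Tfap2a was not called against −E (-0.68, SE 0.196, adjusted p = 0.0184), but with the replicate block it was (adjusted p = 0.00502), among 17.7% of all genes. DESeq2 called it too. All comparisons with +E+N in a medium use the same +E+N libraries, so their values are not independent.

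Krt8 and Tead4 had a called interaction in 2i/LIF, which 0.307% of genes had. Krt8 had log2 changes of -1.41 for −E, 2.45 for −N and 3.96 for −E−N, so that the combined change exceeded the sum of the single changes by 2.92 (SE 0.377, adjusted p = 0.00435). Those of Tead4 were -0.56, -0.12 and -1.65, and the combined change departed from the sum by -0.97 (SE 0.150, adjusted p = 0.00932). Krt18 had an interaction of 1.73 that was not called (SE 0.316, adjusted p = 0.0198). With the replicate block, in which 2.26% of genes had a called interaction, Krt18 (1.69, SE 0.211, adjusted p = 0.000622) and Tfap2c (0.78, SE 0.111, adjusted p = 0.00139) were called as well. DESeq2 and edgeR with no filter on low counts called Krt18 and Tfap2c too. With 1 library left out, Krt8 kept its call in 5 and Tead4 in 2 of 12 fits, with interactions of 2.56 to 3.11 and of -1.09 to -0.88. Neither was called without +E+N replicate 1 or 3, any −E library, or −N replicate 2 or 3, and 1 of them, Krt8, was called without +E+N replicate 2 or −E−N replicate 1 or 3.

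The balance of the paired keratins was examined further after their values were seen. In FCS/LIF the TPM of Krt8 divided by that of Krt18 stayed between 1.07 and 1.18 in all 8 libraries. The +E+N libraries in 2i/LIF had ratios of 2.00, 0.976 and 1.04. Their −E counterparts had 0.751, 0.428 and 0.427. Ratios after loss of Nr5a2 were 1.04, 0.981 and 1.03, and after the combined loss 0.924, 0.833 and 0.978. All 3 −E libraries in 2i/LIF therefore lay below every other library, and +E+N replicate 1 lay above every other library. The mean log2 ratio of −E minus that of +E+N was -1.30 (exact two-sided permutation test, p = 0.1, the smallest that 3 against 3 libraries allow; 6 such comparisons were made, and 2 against 2 libraries cannot go below 0.333). Counts of Krt8 and Krt18 were low in these libraries, at 2.44 to 3.64 and 3.35 to 5.33 CPM in −E.

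**Figure D3:**
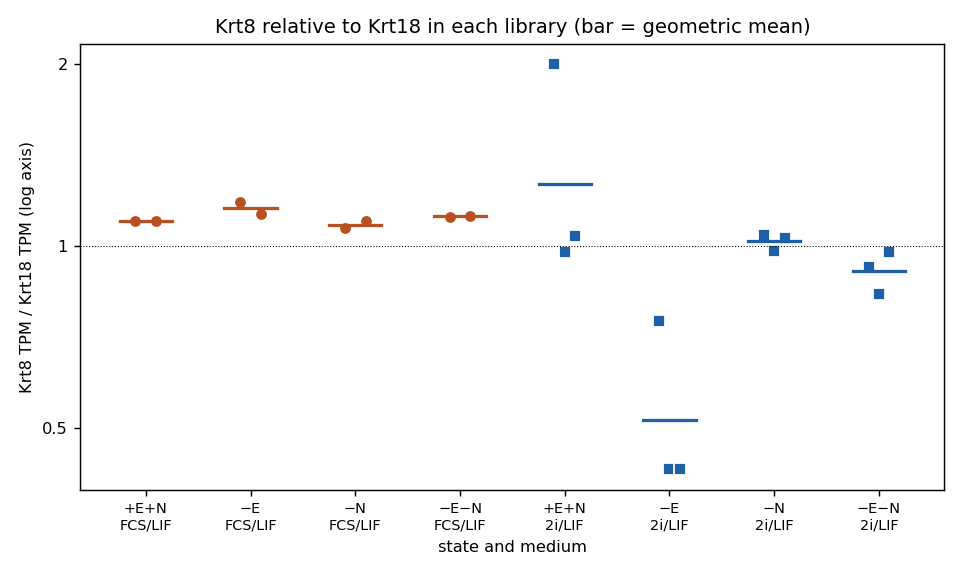
TPM of Krt8 divided by TPM of Krt18 in each library, on a log axis, with the geometric mean of each state as a bar. The FCS/LIF libraries lie between 1.07 and 1.18, and the 3 −E libraries in 2i/LIF are the lowest, at 0.751, 0.428 and 0.427.

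The responses to loss of both factors differed between the media for 5 of the 8 markers that passed the filter in both, taken as a difference of responses in the joint fit at an adjusted p below 0.01; 13.2% of 16147 genes differed. Krt18, Gata2, Cdx2 and Krt8 rose by less in FCS/LIF than in 2i/LIF, with differences of -2.10 (SE 0.359, adjusted p = 0.00048), -2.20 (SE 0.497, adjusted p = 0.00401), -3.10 (SE 0.772, adjusted p = 0.00753) and -1.59 (SE 0.387, adjusted p = 0.00655) on the log2 scale. Tead4 differed in direction, at 0.60 in FCS/LIF, where it was not called, and -1.65 in 2i/LIF, a difference of 2.28 (SE 0.191, adjusted p = 6.12e-07). The differences for Gata3 (0.47), Tfap2a (0.53) and Tfap2c (0.12) were not called. Elf5 and Hand1 entered the joint fit through FCS/LIF and had too few counts in 2i/LIF for their response there to be measured.

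The keratins started from a lower level in 2i/LIF and remained lower there in CPM after the loss, whereas Gata2 was at 49.7 and 70.3 CPM in −E−N in FCS/LIF and at 59.0 to 77.3 in 2i/LIF. Cdx2 ended higher in 2i/LIF, at 40.5 to 53.5 CPM against 5.96 and 7.78. CPM were scaled within each medium, so these levels are set side by side without a test.

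The responses to single losses did not pass as different between the media for any marker. For −E, 1.06% of genes differed, and for −N 0.743%. At an unadjusted p under 0.05 edgeR's quasi-likelihood test counted 2 markers for −E and 5 for −N, against 17.6% and 15.3% of all genes, so that the count for −E was near the share of all genes. DESeq2 called 2 and 1, and limma on log2(TPM + 1) called 2 and 0. Krt8 had the largest difference for −E, 2.09 (SE 0.437, adjusted p = 0.0134), with estimates of 0.66 in FCS/LIF and -1.41 in 2i/LIF. For −N, Gata2 differed by -2.11 (SE 0.503, adjusted p = 0.0315) and Krt18 by -1.55 (SE 0.363, adjusted p = 0.0285).

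**Figure D4:**
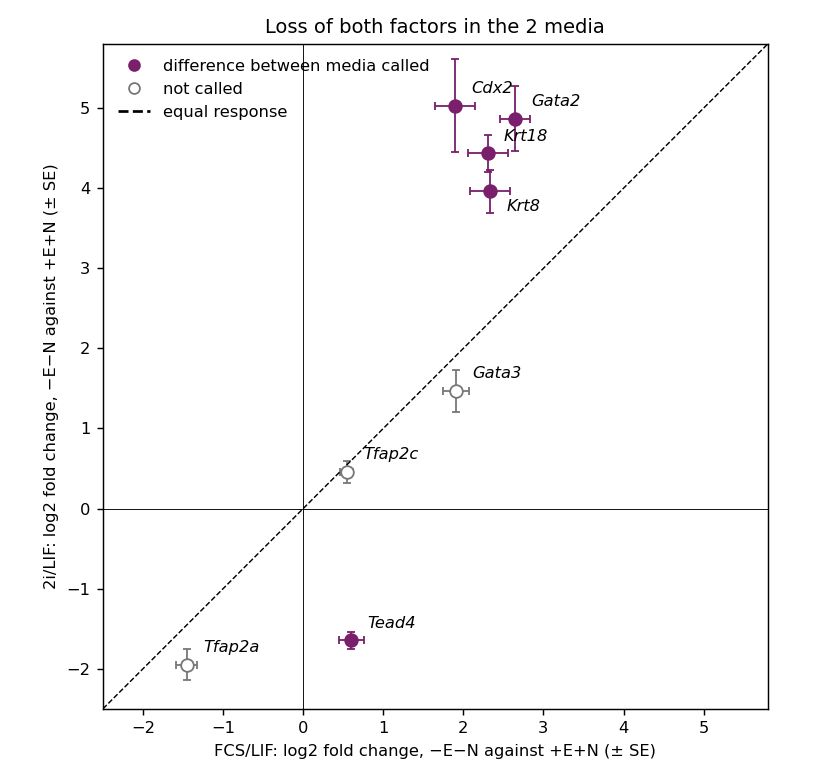
Log2 fold change of −E−N against +E+N in FCS/LIF (horizontal axis) and 2i/LIF (vertical axis) for the 8 markers tested in both media, with standard errors; the dashed line marks equal responses and filled symbols a called difference between the media. Cdx2, Gata2, Krt18 and Krt8 lie above the line, Tead4 lies below it with opposite signs, and Gata3, Tfap2a and Tfap2c lie near it.

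Genes with related roles were listed beside the markers and read mainly as counts and medians for −E−N against +E+N. These are set beside the 18.8% of all genes called in FCS/LIF and the 18.6% called in 2i/LIF. Some of the genes named from these lists had fewer than 20 counts in a +E+N library and passed the filter through other states. In FCS/LIF they were Cdx1, Cdx4, T, Krt14, Prl3d1 and Prl2c2. In 2i/LIF they were Gcm1, Cdx4, Dlx3, Foxa2, Krt5, Plac1, Sox17, Synb and Trp63. For Cdx1 in FCS/LIF and for Cdx4, Krt5, Plac1, Sox17, Synb and Trp63 in 2i/LIF, −E−N was the 1 state that passed. An increase was therefore the call open to them. Of 9 other trophoblast regulators, 5 rose and 0 fell in FCS/LIF (median log2 fold change 0.94), and 5 rose and 2 fell in 2i/LIF (median 1.57). Their summed level was 303 to 315 CPM in +E+N and 346 to 370 in −E−N in FCS/LIF, and 232 to 263 and 138 to 210 in 2i/LIF. Klf5 was the largest part of these sums, with means of 166 and 115 CPM in FCS/LIF and 184 and 90.0 in 2i/LIF. Gcm1, the regulator of syncytiotrophoblast formation, was at 2.18 and 2.45 CPM in +E+N and 6.87 and 7.57 in −E−N in FCS/LIF (log2 fold change 1.64). In 2i/LIF Gcm1 went from 4 counts over the 3 +E+N libraries to 1119 over the −E−N libraries, a ratio of 278 (95% interval 108 to 1021, counting error only), and was already at 3.02, 2.58 and 2.36 CPM in −N. Plet1 rose in FCS/LIF (1.59, SE 0.158), and Fgfr2, the receptor through which Fgf4 maintains trophoblast stem cells, rose in 2i/LIF (3.55, SE 0.353). The 2 that fell in 2i/LIF, named after their values were seen, were Eomes, a T-box factor of trophoblast stem cells (-1.94, SE 0.310), at 7.22, 9.95 and 11.7 CPM in +E+N and 2.74, 2.43 and 2.34 in −E−N, and Klf5 (-1.03, SE 0.204), at 171, 193 and 187 CPM and 65.5, 105 and 99.2. Eomes was among the genes that rose in FCS/LIF (1.22, SE 0.162).

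Of 11 Tead-Yap and Hippo genes, 6 rose and 1 fell in FCS/LIF (median 0.83) against 18.8% of all genes, and 2 rose and 0 fell in 2i/LIF (median 0.23), a share of the list close to the 18.6% of all genes. Amot, an angiomotin that holds Yap out of the nucleus, rose in both media, from 21.0 and 21.2 CPM to 87.2 and 103 in FCS/LIF (2.17, SE 0.112) and from 1.26, 0.991 and 1.21 CPM to 11.99, 10.3 and 10.8 in 2i/LIF (3.25, SE 0.183). Tead3, a paralogue of Tead4 active in trophoblast, rose in FCS/LIF (1.89, SE 0.101). The kinase gene Lats2 rose in both media (1.70 in FCS/LIF, 2.04 in 2i/LIF).

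Of 10 trophectoderm epithelium genes, 6 rose and 1 fell in FCS/LIF (median 0.84), and 4 rose and 2 fell in 2i/LIF (median 0.45). The keratin gene Krt7 rose in both media, to 172 and 242 CPM from 45.5 and 56.1 in FCS/LIF (2.03, SE 0.216) and to 19.0, 15.6 and 32.9 from 1.42, 1.47 and 1.35 in 2i/LIF (3.99, SE 0.320). Krt19 (2.11 in FCS/LIF, 2.08 in 2i/LIF) and the tight junction gene Cldn6 (0.90 and 2.61) rose in both media too. Other genes of the list fell, and these are named after their values were seen. The water channel gene Aqp3 fell in both media, from 15.8 and 13.6 CPM to 4.47 and 5.06 in FCS/LIF (-1.62, SE 0.157) and from 195, 234 and 258 to 44.4, 56.3 and 65.7 in 2i/LIF (-2.05, adjusted p = 1.34e-06). Atp1b1, a subunit of the sodium pump, fell in 2i/LIF, from 254, 232 and 210 CPM to 86.2, 104 and 80.9 (-1.36, SE 0.109). The list summed to 1082 to 1097 CPM in +E+N and 1672 to 1910 in −E−N in FCS/LIF, and to 1098 to 1206 and 829 to 906 in 2i/LIF. The cadherin gene Cdh1 was the largest part, with means of 466 and 587 CPM in FCS/LIF and 475 and 409 in 2i/LIF.

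Of 8 markers of differentiated trophoblast, 5 passed the filter in FCS/LIF, of which 4 were higher in −E−N (Plac1, Prl3d1, Prl2c2 and Syna), and 2 passed in 2i/LIF, Synb and Plac1. Of the giant cell hormone genes, Prl3d1 was at 0.188 and 0.377 CPM in +E+N and 2.08 and 3.02 in −E−N in FCS/LIF (3.14, SE 0.462), and Prl2c2 at 0.215 and 0.236 CPM and 1.54 and 1.38 (2.68, SE 0.297). Both had 0 counts in all 12 libraries in 2i/LIF, which allows up to 3 counts in each. Synb, a fusogen of the syncytiotrophoblast, had 0 counts in the +E+N and −E libraries in 2i/LIF and 2.57, 2.61 and 3.09 CPM in −E−N, at least 80.7-fold higher against a floor of 3 counts over the group. Synb had at most 1 count in any FCS/LIF library. Plac1 was higher in −E−N in both media. In FCS/LIF it was at 6.19 and 9.61 CPM in +E+N and 31.1 and 54.8 in −E−N (2.44, SE 0.325) and made up most of the summed list. In 2i/LIF it went from 1 count over the +E+N libraries to 307 over the −E−N libraries, a ratio of 305 with a 95% interval of 54.3 to 12080 for counting error. In the joint fit 6 of the 8 genes were tested. In +E+N, 4 of these 6 were called lower in 2i/LIF, against 34.7% of 16147 genes. Prl3d1 and Prl2c2 passed the joint filter through FCS/LIF alone. A lower level in 2i/LIF was therefore the call open to them, which limits what the count of 4 shows. The response to loss of both factors was called higher in FCS/LIF than in 2i/LIF for 1 gene and lower for 1, against 13.2% of genes. Prl3d1, Prl2c2 and Synb had at most 1 count per library in 1 of the media, where a response could not be measured.

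Of 11 paralogues of the markers, 7 were tested in FCS/LIF (3 rose, 1 fell, median 0.59) and 4 in 2i/LIF (2 rose, 1 fell, median 0.77). Cdx4 rose in both media, at 1.46 and 1.51 CPM in −E−N in FCS/LIF (2.41, SE 0.362) and at 1.14, 1.90 and 3.12 in 2i/LIF (3.31, SE 0.529). Cdx1 rose in FCS/LIF (2.13, SE 0.418), from 0.108 and 0.212 CPM to 0.692 and 0.755, and in 2i/LIF (1.16), and Gata4, also a marker of primitive endoderm, fell in 2i/LIF (-1.52, SE 0.392).

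Several of the markers are also used outside trophoblast, Cdx2 in posterior mesoderm, Hand1 in lateral mesoderm, and the AP-2 factors and keratins in surface ectoderm, so markers of those tissues were read beside them. Of 9 mesoderm markers, 5 were tested in FCS/LIF (1 rose, 0 fell, median 0.07) and 4 in 2i/LIF (1 rose, 1 fell, median 0.12); the count in FCS/LIF is close to the 18.8% of all genes called. The brachyury gene T rose in both, to 2.87 and 2.44 CPM in FCS/LIF (2.51, SE 0.298) and to 10.8, 10.8 and 3.53 in 2i/LIF (2.44, SE 0.529), and Kdr fell in 2i/LIF (-3.56, SE 0.501). Mesp1 had at most 4 counts in any library. Summed over the list, mesoderm markers were at 4.98 to 6.46 CPM in +E+N and 7.65 to 7.91 in −E−N in FCS/LIF, and at 4.83 to 7.22 and 6.21 to 15.4 in 2i/LIF.

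Of 7 primitive endoderm markers, 7 were tested in FCS/LIF (1 rose, 0 fell, median -0.07) and 5 in 2i/LIF (2 rose, 1 fell, median 1.20); the count in FCS/LIF is not above the 18.8% of all genes called. The median in 2i/LIF included Foxa2 and Sox17, which passed the filter there without +E+N. Dab2 rose in FCS/LIF (1.57, SE 0.098) and Foxa2 in 2i/LIF (3.12, SE 0.366). Their summed level was 28.5 to 36.0 CPM in +E+N and 56.1 to 59.1 in −E−N in FCS/LIF, and 5.21 to 8.56 and 11.3 to 14.3 in 2i/LIF. Of 7 surface ectoderm and keratinocyte markers, 4 were tested in each medium, with 2 higher and 1 lower in FCS/LIF (median 1.50) and 1 higher and 0 lower in 2i/LIF (median 1.66). The median in 2i/LIF included Krt5, Trp63 and Dlx3, which passed the filter there without +E+N, so it leaned towards an increase. Krt14 and Dlx3 rose in FCS/LIF (2.71, SE 0.356, and 2.42, SE 0.175). The 1 that fell there, named after its values were seen, was Grhl3. It was at 18.9 ± 0.707 CPM in +E+N and 8.88 ± 0.746 in −E−N (mean ± SD, n = 2). Grhl3 made up most of the summed list in +E+N in both media, with a mean of 26.1 CPM in 2i/LIF. Krt5 in 2i/LIF had 0 counts in +E+N and 0.652, 1.30 and 6.24 CPM in −E−N, at least 79.8-fold higher against the same floor, with most of it in replicate 3, where Krt8 and Krt18 were also highest. The list summed to 23.1 to 24.0 CPM in +E+N and 29.4 to 36.2 in −E−N in FCS/LIF, and to 23.5 to 32.5 and 21.3 to 73.3 in 2i/LIF. The part of these tissues' genes in the marker results was not tested.

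Over the same comparison the 4 ESC markers fell together in FCS/LIF, with 4 of 4 lower (median -1.25), and 3 of 4 were lower in 2i/LIF (median -1.001). Zfp42 and Nanog had log2 fold changes of -3.44 and -1.30 in FCS/LIF and of -1.12 and -1.37 in 2i/LIF. The summed ESC markers were at 1114 to 1235 CPM in −E−N in FCS/LIF and at 1396 to 1803 in 2i/LIF.

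**Figure D5:**
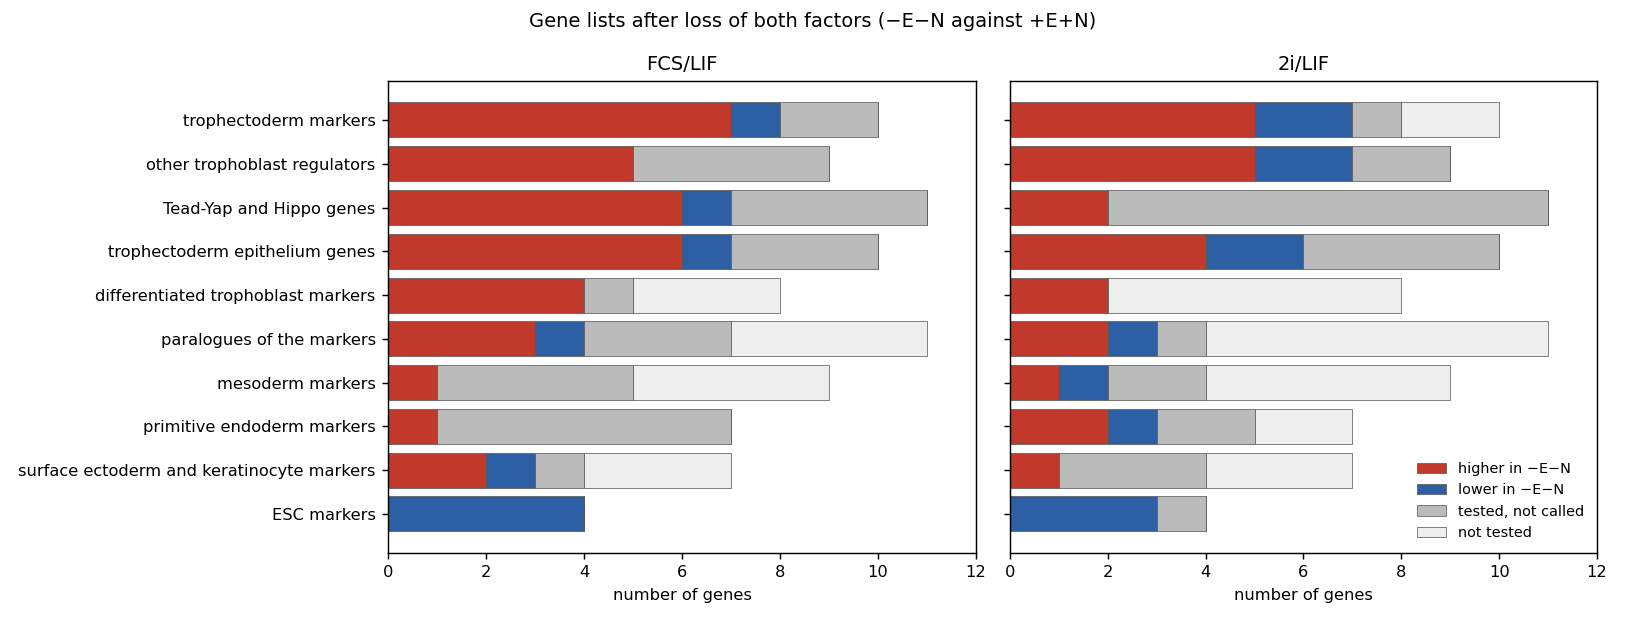
Number of genes of each list that were higher, lower, not called or not tested in −E−N against +E+N, in FCS/LIF (left) and 2i/LIF (right). Among the trophectoderm markers 7 of 10 were higher in FCS/LIF and 5 of 8 tested were higher in 2i/LIF, and the ESC markers were lower or not called.

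The patterns of the markers over the 4 states were compared after the mean of each medium had been subtracted from its log2 CPM group means. The difference in mean level between media therefore plays no part, but differences between the media in the responses remain. Across the 8 centred group means, Pearson's r was 0.996 between Gata2 and Krt18 and 0.980 between Krt8 and Krt18, but 0.750 between Gata2 and Gata3. Cdx2 was close to Gata2 (0.929) and Krt18 (0.931), whereas Tfap2a (-0.599 with Gata2) and Tead4 (-0.391 with Gata2) ran the other way. Tfap2a and Tead4 had an r of 0.606 with each other. Among all 16147 genes, the one nearest to Krt18 was Krt7 (0.996), to Gata2 Adgrl2 (0.998), to Cdx2 Zfp703 (0.997), to Gata3 Mbd2 (0.996) and to Krt8 Gtdc1 (0.992). Nearest to Tfap2a was Cavin4 (0.992), to Tead4 Rab6a (0.984) and to Tfap2c Zscan29 (0.972). With 8 centred points that share their libraries and scaling, such values are descriptions without a test.

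Some marker counts could hold reads of other genes. Tfap2a shares 265 exonic bases with the antisense gene Gm47061, which had 13 to 87 counts in FCS/LIF libraries and 20 to 49 in 2i/LIF libraries, and 380 with Gm26688, which had at most 21. Krt8 shares 101 bases with the antisense Gm36026, at most 22 counts, and its pseudogene Krt8-ps had 7 to 80 counts in FCS/LIF and 0 to 8 in 2i/LIF. Gata3 shares 77 bases with 9230102O04Rik on its own strand, which had at most 2 counts. Use of strand in counting is not given in the sources used here, so reads of antisense partners cannot be told apart.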

How the data were processed

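RNA was sequenced as stranded poly-A libraries from 20 cultures, described by the study as independent experiments. The deposited tables hold estimated counts and TPM, which the authors made with STAR and RSEM on mm10; use of strand in counting is not given in the sources used here. The estimated counts were rounded, 92 spike-in rows, all at 0, were dropped, and a gene was kept if every replicate of some state had 20 or more counts (15636 in FCS/LIF, 14355 in 2i/LIF, 16147 in the joint fit). Differences were tested with edgeR 4.0.16 (R 4.3.3) by its quasi-likelihood test after TMM scaling, the 4 states of a medium in 1 fit and the 8 groups in 1 fit for contrasts between media, with Benjamini-Hochberg adjustment over all genes. Calls required an adjusted p below 0.01 and a fold above 1.5; interactions and differences of responses had no fold limit. All log2 fold changes are from these fits. Each SE is the absolute log2 fold change divided by the square root of the F statistic of its test. Alternatives were DESeq2 1.42.0, DESeq2 size factors, no filter on low counts, only the compared states, limma 3.58.1 on log2(TPM + 1), the replicate number as a block, and leaving out each library.

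Same-numbered libraries deviated together in 2i/LIF, with r above 0.1 for all 3 numbers in −E and −N against +E+N and in −E−N against −N and −E, but not in −E−N against +E+N (lowest r 0.0206); FCS/LIF has only 2 numbers. The precision is that of 2 or 3 libraries of 26653035 to 45443379 counts. 95% intervals of pooled counts are exact (scipy 1.17.1). The genes named from the other lists were the 2 called genes of each list and medium with the largest change in −E−N. The members and lists were chosen with earlier results of these data known. The other lists held other trophoblast regulators, Tead-Yap and Hippo genes, trophectoderm epithelium genes, differentiated trophoblast markers, paralogues, and mesoderm, primitive endoderm, surface ectoderm and ESC markers. A protein table was not used here.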

Additional observations from a re-analysis of the deposited data

Results flagged for a closer look

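Loss of both factors gave responses that differed between the media for 5 markers, by the test of the difference itself, given as FCS/LIF minus 2i/LIF on the log2 scale. The differences were -3.10 for Cdx2, -2.20 for Gata2, -1.59 for Krt8, -2.10 for Krt18 and 2.28 for Tead4. The calls of Krt18 and Tead4 held in all 20 fits with a library left out, that of Gata2 in 16, that of Krt8 in 15 and that of Cdx2 in 9. Without FCS/LIF +E+N replicate 1 or 2, FCS/LIF −E−N replicate 1 or 2i/LIF +E+N replicate 3, 2 markers were called, and without 2i/LIF +E+N replicate 2, 3 were. The medium cannot be told apart from the culture series.

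In 2i/LIF the response to the combined loss departed from the sum of the single responses for Krt8, by 2.92, and for Tead4, by -0.97. Esrrb transcript in the −E libraries of this medium was at 440, 426 and 375 CPM, and its part in these values was not tested. Transcript of the disrupted gene is included in it, and the study reports that Esrrb binding was abolished in −E in this medium.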

How the results depend on the processing

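Between 1 and 4 settings besides leaving out a library moved a count of called markers by over 1.5 times in 9 of the 16 comparisons. No filter on low counts gave 5 called markers in −E in FCS/LIF, 6 in −N in FCS/LIF, 2 with an interaction in FCS/LIF, 2 in −E in 2i/LIF, 4 with an interaction in 2i/LIF, and 3 and 5 whose response to −E and −N differed between media. DESeq2 gave 1 in −N in FCS/LIF, 2 in −E in 2i/LIF, 4 interactions in 2i/LIF, and 2 and 1 differences between media for −E and −N. Limma on log2(TPM + 1) gave 2 for −E−N against −N and 4 for −E−N against −E in FCS/LIF, 1 interaction in 2i/LIF and 2 differences between media for −E. With only the compared states, 0 markers were called in −E in 2i/LIF.

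The replicate block gave 5 called markers in −N in FCS/LIF (Cdx2, Gata2, Hand1, Krt18 and Krt8) and raised the calls over all genes to 1.95%. Same-numbered libraries of −N and +E+N had r 0.563 there, the top of the range in FCS/LIF (0.0834 to 0.563). With 2 numbers both give the same r, so they cannot settle whether these libraries were paired. The block also gave 2 called markers in −E in 2i/LIF and 4 interactions in 2i/LIF (Krt8, Tead4, Krt18 and Tfap2c). It gave 1 and 4 differences between media for −E and −N. Where same-numbered 2i/LIF libraries deviated together, and in the 2i/LIF interaction, it changed no call beyond those given for Krt8, Cdx2, Tfap2a, Krt18 and Tfap2c.

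Leaving out 1 library, the count ranged from 2 to 3 in −E and from 7 to 10 in −E−N in FCS/LIF, from 2 to 5 against −N and from 0 to 8 against −E there, from 0 to 2 in −E in 2i/LIF, from 4 to 8 for −E−N against −N in 2i/LIF, from 0 to 2 for interactions in 2i/LIF, and from 0 to 1, 0 to 1 and 2 to 5 for differences between media in −E, −N and −E−N.

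The values that changed sign were small and none was called. Limma on log2(TPM + 1) gave 0.0739 for Tfap2c in −E and 0.0435 for Tfap2a in −E−N against −E in FCS/LIF, and -0.00813 for Gata3 in −E in 2i/LIF, where no filter gave -0.00579. For Tfap2a between media in +E+N, DESeq2 gave -0.000857, its size factors -0.00143 and no filter -0.0190. With a library left out, values in −E ranged in FCS/LIF from -0.42 to 0.60 for Elf5, -0.12 to 0.0407 for Tfap2c and -0.0440 to 0.68 for Hand1, and in 2i/LIF from -0.26 to 0.81 for Gata2, -0.22 to 0.12 for Gata3, -0.13 to 0.0649 for Tfap2c and -0.30 to 0.11 for Krt18. Tfap2a in −E−N against −E in FCS/LIF ranged from -0.0662 to 0.0260, and between media in +E+N Cdx2 ranged from -1.06 to 0.0293 and Tfap2a from -0.0567 to 0.14. Of 624 values under another setting, 564 kept their direction and call, and of 1204 with a library left out 1073 did; the causes were not tested. With 2 libraries per state in FCS/LIF, and with Elf5 and Hand1 at 16 counts or fewer in 2i/LIF, small changes were not detectable.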
